A study of Mus musculus with 81 samples.

Results

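Germline cells and somatic cells of the same fetal organ were compared for RNA from mouse endogenous retroviruses (mERVs), using the control animals of the F1 generation. The comparison took 10 of the 81 libraries of the series: the 5 DMSO libraries of P4 cells and the 5 DMSO libraries of P6 cells, chosen by generation, exposure and sorted population as the labels give them. P4 cells were sorted from E18.5 fetal testes as EGFP-positive germline cells with a side scatter gate that separated them from a further germline population (P5, not used here), and P6 cells were the EGFP-negative cells. All 10 libraries came from OG2 mice on a C57BL/6J background, in which a Pou5f1 promoter drives EGFP, so that Pou5f1 activity chose the cells and is no result. In all of them the F0 dams had received the vehicle DMSO in drinking water, and no animal of this comparison descended from a dam given tributyltin, the compound under study in the series. P4 libraries carry the labels 43-4, 43-5, 44-1, 44-3 and 48-4, and P6 libraries the labels 1, 2, 3, 4 and 12. The labels do not say whether the libraries of a group come from separate litters, so p-values measure the spread between these libraries, which may be technical. The P4 and P6 values were deposited in separate tables with separate label numbers, so population and any batch that goes with it cannot be told apart.

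Endogenous retroviruses are remnants of retroviral infections of the germline. An intact copy has a pair of long terminal repeats (LTRs), which hold the promoter and the polyadenylation signal, around an internal region with the viral genes, and many copies have recombined to a solitary LTR. In male fetal germ cells the genome is demethylated and then methylated again before birth, and the PIWI-interacting RNA (piRNA) pathway directs silencing to transposons in that period. Somatic cells of the testis, such as Sertoli cells, Leydig cells and interstitial cells, keep their DNA methylation and do not use this pathway.

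RNA was converted to cDNA with an oligo(dT) primer, and each value is the number of reads at 1 LTR locus of the RepeatMasker annotation. A species is the name RepeatMasker gives to a repeat, and the annotation holds 970384 loci of 680 species. P4 libraries held 3890178 to 4775425 reads at these loci (median 4039066) and P6 libraries 3328166 to 3792180 (median 3534415). All 10 libraries were scaled together with TMM, the trimmed mean of M values, and are given as scaled CPM, reads at a locus relative to the scaled library total, on which 1 read is worth about 0.259. In bulk samples such as these, fewer cells of a type and less RNA per cell cannot be told apart. Log totals of the tested species, over loci outside annotated genes only, correlated between 0.871 and 0.942 in the 10 pairs of P4 libraries. The range was 0.896 to 0.925 in the 10 pairs of P6 libraries and 0.583 to 0.694 in the 25 pairs across populations. This is a description over species, which are not independent. The sorted identity was checked with host genes. Ddx4, the germ cell helicase also called Vasa, reached 2006 ± 159 scaled CPM of LTR reads in P4 (SD, n = 5, as for every value with ± unless another n is given) and 2.50 ± 1.75 in P6. Summed LTR reads in the genes of the 6 somatic marker lists (Sertoli, Leydig, interstitial, endothelial, macrophage and erythroid) ranged from 13143 to 14279 scaled CPM in P6 and from 1248 to 2562 in P4, with the 2 highest P4 libraries being 44-3 and 44-1 (2093). The labels of both populations therefore matched their markers, and the P4 libraries held somatic marker reads in unequal amounts.

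The sequences below are from LTRs outside genes at which the difference between the populations was among the largest, shown because each carries, or lacks, the hexamer AATAAA that ends many retroviral transcripts. They were read from the plus strand of GRCm38 (RefSeq), 5′ to 3′, as the whole LTR or its central 300 bases. Capitals mark AATAAA, its reverse complement TTTATT, or TATAAA, the core of a TATA box.
MTB_Mm, chr15:91261101-91261400: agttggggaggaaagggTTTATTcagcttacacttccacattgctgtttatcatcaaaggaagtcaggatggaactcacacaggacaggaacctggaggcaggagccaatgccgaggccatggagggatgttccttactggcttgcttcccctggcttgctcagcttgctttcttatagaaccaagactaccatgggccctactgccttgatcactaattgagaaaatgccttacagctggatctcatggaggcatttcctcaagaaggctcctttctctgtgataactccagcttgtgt
MTC, chr4:153085552-153085851: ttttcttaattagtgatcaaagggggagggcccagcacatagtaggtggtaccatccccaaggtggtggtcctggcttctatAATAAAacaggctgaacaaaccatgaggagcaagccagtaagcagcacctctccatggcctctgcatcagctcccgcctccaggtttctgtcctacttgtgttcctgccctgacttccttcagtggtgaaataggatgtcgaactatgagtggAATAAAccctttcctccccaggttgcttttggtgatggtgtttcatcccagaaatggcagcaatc
MTEa, chr9:99170793-99171006: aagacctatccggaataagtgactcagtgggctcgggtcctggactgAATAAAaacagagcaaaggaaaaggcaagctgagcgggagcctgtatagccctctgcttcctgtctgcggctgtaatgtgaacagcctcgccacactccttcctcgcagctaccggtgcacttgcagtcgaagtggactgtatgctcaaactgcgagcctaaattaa
RLTR10D2, chr11:31549361-31549660: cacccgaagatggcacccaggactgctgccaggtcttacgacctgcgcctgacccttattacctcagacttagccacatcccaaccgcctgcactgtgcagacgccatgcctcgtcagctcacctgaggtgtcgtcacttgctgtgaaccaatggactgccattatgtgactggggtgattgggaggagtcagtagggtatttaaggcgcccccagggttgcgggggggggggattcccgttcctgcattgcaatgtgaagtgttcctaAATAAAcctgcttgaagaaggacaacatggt
RLTR30D_RN, chr17:34997140-34997395: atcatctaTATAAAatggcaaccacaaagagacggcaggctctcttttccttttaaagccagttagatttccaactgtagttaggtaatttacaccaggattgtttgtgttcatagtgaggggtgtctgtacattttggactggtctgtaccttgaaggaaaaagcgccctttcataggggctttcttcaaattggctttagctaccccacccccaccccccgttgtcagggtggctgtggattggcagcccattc
The first 4 were higher in P4 and the last in P6. AATAAA stood on 1 strand of each of the 4 and occurred 2 times in MTC, and RLTR30D_RN held 1 TATAAA and no AATAAA in this window. On either strand, AATAAA was found in 21.4% of 363959 LTR loci outside genes in central windows of 214 bases, in 27.6% of 324983 in windows of 256 bases and in 37.4% of 286111 in windows of 300 bases. TATAAA was found in 17.3%, 22.0% and 25.7% of the same loci. The motifs did not overlap each other in these 5 sequences, and a match describes letters, not a site in use. CG dinucleotides, the bases that DNA methylation marks, numbered 10 in the RLTR10D2 window and 9 in the MTEa window, against 3 in RLTR30D_RN, 2 in MTC and 1 in MTB_Mm.

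Where the reads lay differed between the populations. Loci outside annotated genes make up 64.54% of all loci but held 2.27 ± 0.145% of the LTR reads in P4 and 1.32 ± 0.195% in P6. The lowest P4 library had 2.13% and the highest P6 library 1.58%, so that the groups did not overlap (exact permutation test over the 252 splits, two-sided, p = 0.00794, the smallest p this design allows, adjusted p = 0.0106 over 12 shares). Loci in introns held 90.6 ± 0.230% in P4 and 90.3 ± 0.271% in P6, with overlapping groups (exact permutation test, p = 0.175). Loci that overlap an exon held 7.17 ± 0.0989% in P4 and 8.35 ± 0.156% in P6, with no overlap (exact permutation test, adjusted p = 0.0106). A read can be counted at several loci of 1 intron, so these are shares of counts. With loci of 1 gene that had the same reads in all 10 libraries counted once, loci outside genes held 3.62 ± 0.222% in P4 and 2.08 ± 0.305% in P6, and loci in introns 85.5 ± 0.338% and 85.2 ± 0.370%. Most counts in both populations therefore fell inside genes, where a read can come from the RNA of the host gene.

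Among the reads outside genes, the balance of the LTR superfamilies also differed. ERV1, the class of the gammaretrovirus-like elements, held 12.6 ± 0.473% of them in P4 and 31.5 ± 2.39% in P6. ERVL-MaLR, the old and numerous non-autonomous LTR elements, held 34.2 ± 0.457% in P4 and 22.2 ± 1.91% in P6. ERVL held 10.5 ± 0.173% and 6.33 ± 0.584%. None of these 3 shares overlapped between the populations (exact permutation test, adjusted p = 0.0106 for each). In place of shares of reads, as shares of the loci with a read, P4 minus P6 turned to -1.29 percentage points for ERVL-MaLR and -0.155 for ERVL. ERVK, the class of IAP and ETn elements, held 41.9 ± 0.761% and 39.7 ± 1.10%, and its groups overlapped (exact permutation test, adjusted p = 0.0190). The internal regions, which encode the viral proteins, took 19.7 ± 1.21% of the reads outside genes in P4 and 52.8 ± 3.22% in P6. The P4 libraries ranged from 18.2% to 21.6% and the P6 libraries from 48.6% to 56.8% (exact permutation test, adjusted p = 0.0106), without overlap. Over the alternatives, P4 minus P6 ranged from -29.8 to -1.86 percentage points for ERV1 and from -45.3 to -9.69 for internal regions. The sizes of these differences therefore depended on the processing. The ERV1 reads of P6 included 601 ± 133 and 536 ± 87.9 scaled CPM at 2 internal segments of 1 RLTR4 provirus, described further on.

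Summed over loci outside genes, most species were higher in germline cells. Of 535 species tested, 441 were higher in P4 (82.4%) and 26 in P6 (4.86%) at a false discovery rate (FDR) under 0.05 from limma, and the median log2 difference, P4 minus P6, was 2.05. A feature was tested if its mean over the 10 libraries was at least 5 reads' worth (1.29 scaled CPM), so one whose mean in 1 population was under this minimum passed through the other population, so that its means had to differ. This held for 105 of the 441 species, with P6 under the minimum, and for 3 of the 26, with P4 under it. Of the 413 species at or above the minimum in both populations, 336 were higher in P4 and 23 in P6. The 5 libraries of each population did not overlap in 353 species that were higher in P4 (66% of those tested) and in 21 that were higher in P6 (3.93%). Without P4 libraries 44-1 and 44-3 the counts of calls were 418 and 26. With each species counted without its locus of most reads, 493 were tested, and 419 were higher in P4 and 17 in P6.

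**Figure D1:**
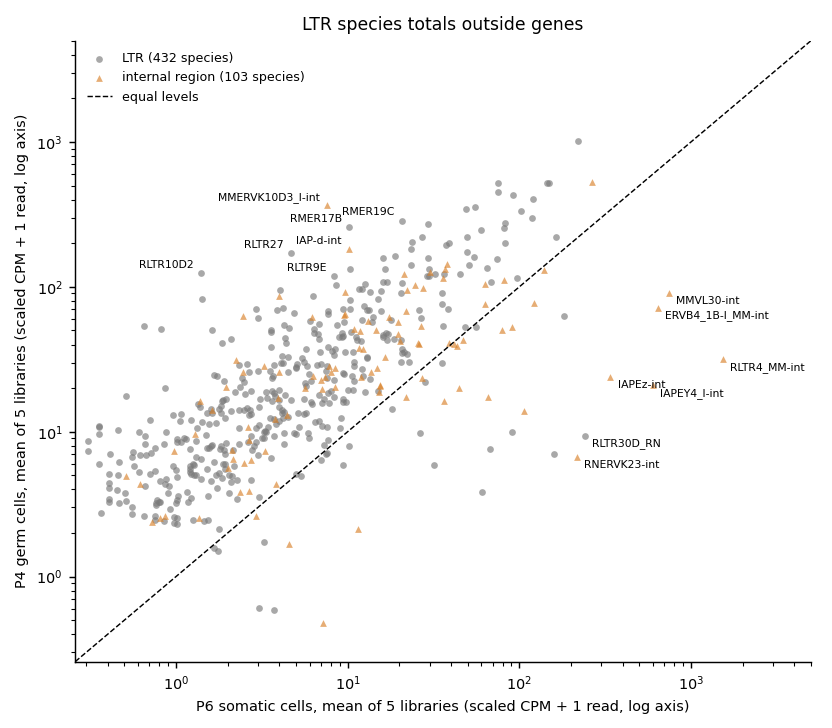
Mean scaled CPM, with the worth of 1 read added, of each LTR species outside genes in the 5 P6 libraries (x axis, log scale) against the 5 P4 libraries (y axis, log scale). Circles are 432 LTR species and triangles 103 internal regions. Most of the 535 points lie above the line of equal levels, and the named species that are higher in P6 lie far below it.

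Among the species named by the rule, which asks for a mean of at least 200 units, those higher in P4 were all of the ERVK class. Species that the rule did not name could also differ widely. LTRIS5, of the ERV1 class, had an F1 log2 difference of 5.23 in the model of both generations. RLTR10D2, the LTR of an MMERVK10 provirus group, reached 134, 141, 99.5, 111 and 136 scaled CPM in P4 libraries 43-4, 43-5, 44-1, 44-3 and 48-4, and 2.45, 0, 1.47, 0 and 1.81 in P6 libraries 1, 2, 3, 4 and 12. Every P4 library was far above every P6 library (log2 difference 7.07), and with a P6 mean of 1.15 RLTR10D2 passed the filter through P4 alone. MMERVK10D3_I-int, an internal region of the same group, reached 366 ± 62.3 scaled CPM in P4 and 7.37 ± 2.23 in P6, a log2 difference of 5.61 ± 0.212 (SE, FDR 8.79e-14). The LTR and the internal region of this group therefore differed in the same direction. However, RLTR10D2 drew 25.5% and MMERVK10D3_I-int 13.8% of its P4 reads from 1 place on chromosome 11, described further on. Here and for the species below, shares of reads at top loci are over the libraries of the population where the species was higher. The same holds for numbers of loci with reads.

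Other ERVK species were spread over more loci. RLTR27 stood at 170 ± 19.8 scaled CPM in P4 and 4.4 ± 2.11 in P6, with reads at 307 of its 1297 loci outside genes and 5.50% of them at the top locus. RMER17B stood at 257 ± 42.5 and 9.92 ± 4.94, and its top locus, on chromosome 8, held 4.78% of its reads. RMER13B stood at 134 ± 17.5 and 10.1 ± 5.92, RLTR9E at 118 ± 15.3 and 8.05 ± 4.13, and RMER19C at 287 ± 43.7 and 20.4 ± 7.75. None of these 5 overlapped between the populations, and their log2 differences lay between 3.86 and 5.31 (limma FDR of 1.68e-09 or less). IAP-d-int, an internal region of the IAP group, was also higher in P4, at 182 ± 22.1 against 9.94 ± 3.33, with 23.9% of its reads at the same chromosome 11 place.

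The species that were higher in somatic cells were few. Of the 8 named, the top 5 loci held at least 71.9% of the reads in 6, and 33.2% and 29.5% in IAPEz-int and MMVL30-int. RLTR4_MM-int, the internal region of a murine leukemia virus-like provirus, reached 1801, 1588, 1703, 1519 and 1084 scaled CPM in P6 libraries 1, 2, 3, 4 and 12, and 26.1, 16.9, 35.9, 62.3 and 15.5 in P4 libraries 43-4, 43-5, 44-1, 44-3 and 48-4. All P6 libraries were above all P4 libraries, and the P4 libraries with the most RLTR4_MM-int were 44-3 and 44-1, those with the most somatic marker reads. The log2 difference was -5.78 ± 0.283 (SE, FDR 3.72e-12), and the top 5 of 324 loci held 89.8% of the reads. Its LTR, RLTR4_Mm, stood at 160 ± 29.3 in P6 and 6.78 ± 4.74 in P4. Both parts of this provirus thus differed in the same direction.

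RNERVK23-int reached 216 ± 16.3 scaled CPM in P6 and 6.43 ± 3.99 in P4, and all of its P6 reads lay at 1 of its 30 loci. RLTR30D_RN reached 242 ± 21.6 in P6 and 9.14 ± 6.27 in P4, with P6 reads at 3 loci, and the top locus held 64.7% of them. These 2 species are therefore measurements of a single place on chromosome 17 more than of a repeat family. IAPEY4_I-int reached 599 ± 66.5 in P6 and 20.8 ± 8.28 in P4, with 69.7% of its P6 reads at 1 locus on chromosome 7. IAPEz-int, the internal region of an abundant IAP group, reached 339 ± 36.3 in P6 and 23.6 ± 16.4 in P4, with reads at 794 of its 5486 loci and 16.2% at the top one. MMVL30-int, from a VL30 retrotransposon, reached 745 ± 92.5 in P6 and 90.6 ± 18.7 in P4, and its top locus held 7.63%. ERVB4_1B-I_MM-int reached 642 ± 119 in P6 and 71.6 ± 24.1 in P4, with 40.2% of its P6 reads at a locus on chromosome Y. The groups did not overlap in any of these 6 species (limma FDR between 3.72e-12 and 2.76e-09).

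Related elements did not all differ in the same direction. In the IAP group, 11 of 25 species were higher in P4 and 8 in P6, beside 82.4% and 4.86% of all species tested. IAP1-MM_I-int stood at 122 ± 18.8 scaled CPM in P4 and 21 ± 4.45 in P6, opposite in direction to IAPEz-int. IAP LTRs split as well, since IAPLTR2b stood at 43.1 ± 10.3 in P4 and 18.4 ± 2.89 in P6, whereas IAPLTR1_Mm stood at 9.60 ± 2.47 in P4 and 26.0 ± 5.32 in P6. In the ETn/MusD group, the LTR RLTRETN_Mm stood at 164 ± 24.8 in P4 and 18.7 ± 3.23 in P6, without overlap. The internal region ETnERV-int was lower in P4, at 19.6 ± 5.27 against 44.3 ± 16.9, with overlapping groups (log2 -1.10, limma FDR 0.00234), but this direction rested on 1 locus on chromosome 4. Without that locus ETnERV-int stood at 19.6 ± 5.27 in P4 and 14.1 ± 5.73 in P6 and did not pass the test (log2 0.53, limma FDR 0.131). In the F3 generation, described further on, its total was higher in P4 (log2 1.31, limma FDR 0.0298). MMETn-int did not pass the test, with 39.0 ± 7.14 and 43.1 ± 10.3 (limma FDR 0.590).

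MERVL, the retrovirus known for its burst of transcription in the early embryo, differed less. Its internal region MERVL-int stood at 17.2 ± 6.19 scaled CPM in P4 and 21.6 ± 6.88 in P6, with overlapping groups (log2 -0.35, limma FDR 0.298). Without its locus of most reads MERVL-int was higher in P6, at 12.6 ± 3.92 in P4 and 21.6 ± 6.88 in P6 (log2 -0.76, limma FDR 0.0283). Its LTR, MT2_Mm, was higher in P4 in every library, at 155 ± 5.84 against 73.6 ± 10.3 (log2 1.09, limma FDR 3.62e-06). The related internal region MERVL_2A-int was higher in P6, at 90.3 ± 13.7 against 52.7 ± 7.55 (log2 -0.77, limma FDR 0.000546). MURVY-int, a murine leukemia virus-like element named for its copies on chromosome Y, was higher in P4, at 31.0 ± 3.61 against 1.99 ± 2.13 (log2 4.25), unlike RLTR4_MM-int of the same group.

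Grouped by family, 14 of the 18 families had a higher mean total outside genes in P4 and 4 in P6. The MMERVK10 and RLTR10 family totalled 1032 ± 65.5 scaled CPM in P4 and 115 ± 40.0 in P6 (8.96-fold higher in P4), and 13 of its 13 species were higher in P4, beside 82.4% of all species tested. The RMER16, RMER17 and RMER19 elements stood at 2342 ± 200 and 412 ± 91.5 (5.68-fold), the MTB, MTC, MTD and MTE elements at 3479 ± 153 and 835 ± 268 (4.17-fold), the MLT1 elements at 1322 ± 65.7 and 321 ± 88.3 (4.12-fold) and the ORR1 elements at 3432 ± 194 and 1198 ± 253 (2.86-fold). These 5 families did not overlap between the populations. Toward P6, the murine leukemia virus-like family stood at 1835 ± 321 in P6 and 253 ± 30.7 in P4 (7.25-fold), VL30 at 865 ± 114 and 153 ± 23.9 (5.66-fold), and IAP at 1300 ± 120 and 751 ± 65 (1.73-fold), again without overlap. In the first, 2 segments of 1 chromosome 4 provirus held 601 and 536 in P6 and 7.74 and 6.30 in P4. Of its 7 species, 3 were higher in P4 and 3 in P6. In IAP, 1 IAPEY4_I-int locus on chromosome 7 held 418 in P6 and 3.51 in P4. Single places thus made up much of the difference in these 2 families. The ERVB, MYSERV, MTA and MERVL families overlapped, and MTA and MERVL had the higher mean in P4 by 1.16-fold and 1.21-fold only, turning to P6 with a common total per library (P4 over P6, 0.949 and 0.991) and with TMM factors from loci outside genes (0.884 and 0.929). The other 16 families kept their direction under these scalings and under median-ratio scaling. P6 library 3 was the highest P6 library in the MMERVK10, RMER, MTB to MTE, MLT1 and ORR1 families.

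**Figure D2:**
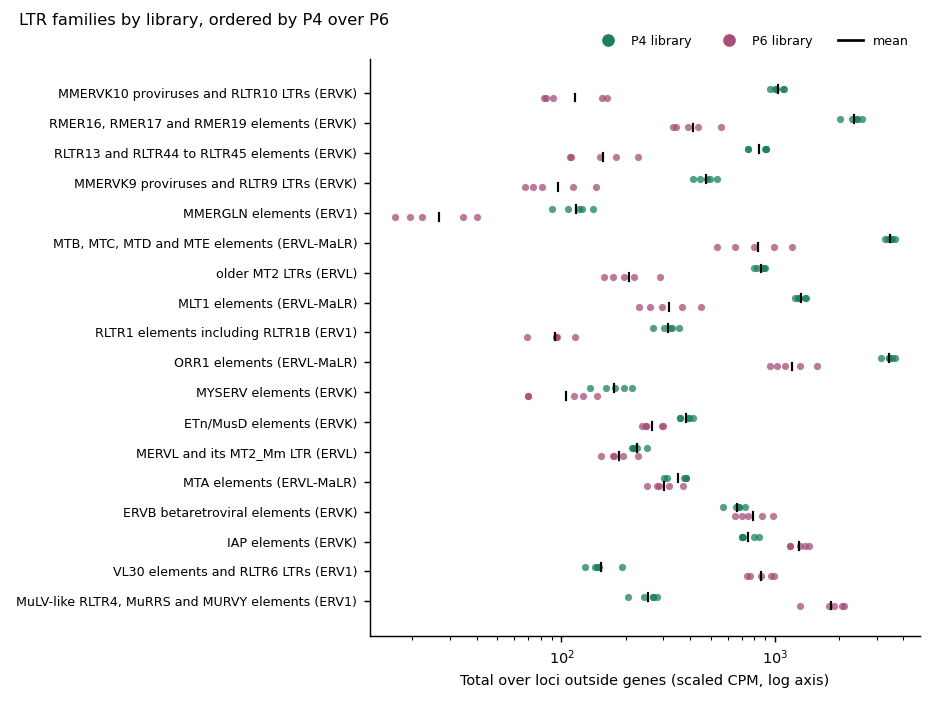
Total scaled CPM outside genes of each LTR family in each of the 5 P4 and 5 P6 libraries (x axis, log scale), 1 point per library and a black mark for the mean of each population. The MMERVK10 and RLTR10 family and the murine leukemia virus-like family show the largest separations, in opposite directions, and the ERVB, MYSERV, MTA and MERVL families overlap.

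At single loci, 39355 of 100042 tested were higher in P4 (39.3%) and 37344 in P6 (37.3%), and the median log2 difference was 0.02. This balance turned toward P6 with a common total per library (33678 higher in P4 and 43193 in P6) and with TMM factors from loci outside genes (31625 and 44304). It also turned when any 1 P4 library was left out, with 36001 to 37251 higher in P4 and 37312 to 38600 in P6. Of the calls, 16626 toward P4 and 16887 toward P6 were at loci that passed the filter through 1 population alone. The 1600 tested loci outside genes had another balance. Of them, 1080 were higher in P4 (67.5%) and 372 in P6 (23.2%), with a median log2 difference of 3.24. Of the 1080, 788 had 0 reads in every P6 library, and of the 372, 66 had 0 reads in every P4 library. Such loci passed the filter on low values through 1 population alone, so they had to differ, and these counts describe them. The groups did not overlap at 870 of the 1080 and 309 of the 372 called loci outside genes. Over all loci tested, whether called or not, the groups did not overlap at 32.9% and 29.2%, which is another base. Loci higher in P6 had a median length of 503 bases, those higher in P4 of 385 bases and those not called of 364 bases.

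The calls outside genes are given here by LTR and internal region, again as a description, since they include the loci that passed the filter through 1 population. In ERV1, 82 of 128 LTR loci outside genes were higher in P4 and 29 in P6, whereas 28 of 106 internal loci were higher in P4 and 75 in P6. In ERVK the counts were 370 and 67 of 495 LTR loci, and 119 and 81 of 212 internal loci. ERVL had 124 and 13 of 144 LTR loci, and 5 and 10 of 18 internal loci. In ERVL-MaLR, 300 of 396 LTR loci were higher in P4 and 64 in P6, against 47 and 32 of 95 internal loci. On the autosomes 1059 of 1530 loci outside genes were higher in P4 and 328 in P6. On chromosome X, 21 of 49 were higher in P4 and 24 in P6, and on chromosome Y, 0 of 21 were higher in P4 and 20 in P6. Both populations are from male fetuses, so the sex chromosomes are present in all 10 libraries.

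Among the loci outside genes named by the rule, the largest difference toward P4 was at an MTB_Mm LTR, the first sequence above, at chr15:91261072-91261429. It held 307, 380, 388, 315 and 434 reads in P4 libraries 43-4, 43-5, 44-1, 44-3 and 48-4 and 0 in each of the 5 P6 libraries. P4 was at least 634-fold higher, taking the limit that a count of 0 over the group allows (3 reads, counting error only). The LTR begins 178 bases beyond the end of CN725425, a protein-coding gene on the plus strand, and the adjacent RLTR17B_Mm LTR held 62 to 108 reads in P4 and 0 in P6. LTR reads inside Slc2a13, a myo-inositol transporter gene 6267 bases from this LTR, were higher in P6, at 93.2 ± 39.1 scaled CPM against 7.04 ± 5.83 (limma FDR 0.00124), opposite in direction to the LTR. On chromosome 4 an MTC LTR (chr4:153085543-153085860) held 265 to 438 reads and an RMER19B LTR (chr4:153086505-153087353) 209 to 384 reads in P4, and both held 0 in P6, at least 591-fold and 546-fold higher in P4. An MTD LTR beside them held 57 to 112 reads in P4 and 0 in P6, and the nearest gene, Gm13173, a lincRNA, was 59730 bases from the MTC LTR.

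An RLTR13D3A1 LTR at chr13:99852405-99853195, 45294 bases from Cartpt, held 106, 158, 166, 304 and 206 reads in P4 and 0 in every P6 library (at least 327-fold). The MTEa LTR at chr9:99170793-99171006, 30172 bases from Pik3cb, held 262 to 324 reads in P4 and 2, 4, 0, 0 and 0 in P6 libraries 1, 2, 3, 4 and 12 (log2 7.39). P4 libraries were all above P6 libraries at each of these loci, which passed the filter through P4 alone. LTR reads inside Pik3cb, a catalytic subunit of phosphoinositide 3-kinase, were also higher in P4, at 74.1 ± 13.5 scaled CPM against 10.2 ± 2.92 (log2 2.85).

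The chromosome 11 place is a composite of MMERVK10D3_I-int, IAP-d-int and RLTR10D2 fragments between 31546096 and 31549682. Its RLTR10D2 LTR (chr11:31549339-31549682) held 153, 151, 90, 43 and 158 reads in P4 libraries 43-4, 43-5, 44-1, 44-3 and 48-4, and 4, 0, 0, 0 and 3 in P6 libraries 1, 2, 3, 4 and 12. The adjoining MMERVK10D3_I-int fragment held 86 to 249 reads in P4 and 0 to 8 in P6, and the longer IAP-d-int fragment 116 to 258 and 0 to 3. Library 44-3 was the lowest P4 library at all but 1 of the 5 fragments. The nearest gene, Bod1, which acts at the kinetochore, was 115499 bases away. The top RMER17B locus (chr8:84322589-84323156) and the RLTR19-int and RMER2 loci next to it held 25 to 73 reads in P4 and 0 in P6.

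Toward P6, the IAPEY4_I-int locus at chr7:48124450-48132115 is an internal region between a pair of IAPEY4_LTR copies. It held 1685, 1738, 1939, 1432 and 1433 reads in P6 libraries 1, 2, 3, 4 and 12, and 18, 0, 43, 0 and 7 in P4 libraries 43-4, 43-5, 44-1, 44-3 and 48-4. The LTR before it held 154 to 202 reads in P6 and 0 to 4 in P4, and the LTR after it 33 to 40 and 0 to 2. The log2 difference of the internal region was -8.11 ± 0.791 (SE, limma FDR 1.06e-07). Both flanking LTRs and the region between them therefore had few or no reads in P4.

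An RLTR4 provirus on chromosome 4 supplied most RLTR4_MM-int reads. Its first internal segment (chr4:133096444-133099025) held 3206, 2241, 2651, 2152 and 1631 reads in P6 libraries 1, 2, 3, 4 and 12, and 34, 4, 28, 77 and 2 in P4 libraries 43-4, 43-5, 44-1, 44-3 and 48-4. The second (chr4:133099014-133100849) held 1528 to 2576 reads in P6 and 5 to 53 in P4. The log2 differences were -7.08 ± 0.647 and -6.79 ± 0.431 (SE, limma FDR 4.98e-08 and 7.85e-10). Libraries 44-3 and 43-4 were the highest P4 libraries at the first segment and 44-3 and 44-1 at the second.

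The other loci named by the rule were ETn internal regions. ETnERV3-int at chr7:106267266-106269782 held 208, 260, 167, 235 and 203 reads in P6 and 9 in P4 library 43-4, with 0 in the other 4 P4 libraries. ETnERV-int at chr4:41871689-41877123 held 87, 161, 135, 159 and 52 reads in P6 and 0 in every P4 library, so that P6 was at least 190-fold higher. The RLTR30D_RN and RNERVK23-int reads came from chromosome 17, between 34996674 and 34998562, where the RLTR30D_RN fragment lies 3592 bases from Vars, the valyl-tRNA synthetase gene. The RNERVK23-int fragment there held 752 to 926 reads in P6 and 7 to 36 in P4, the RLTR30D_RN fragment of the last sequence above 500 to 686 and 2 to 35, and the RLTR11A LTR next to it 534 to 709 and 2 to 46. LTR reads inside Vars itself were higher in P4, at 48.1 ± 8.23 scaled CPM against 19.2 ± 0.670 (log2 1.29, limma FDR 1.78e-05), opposite in direction to the LTRs near it.

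**Figure D3:**
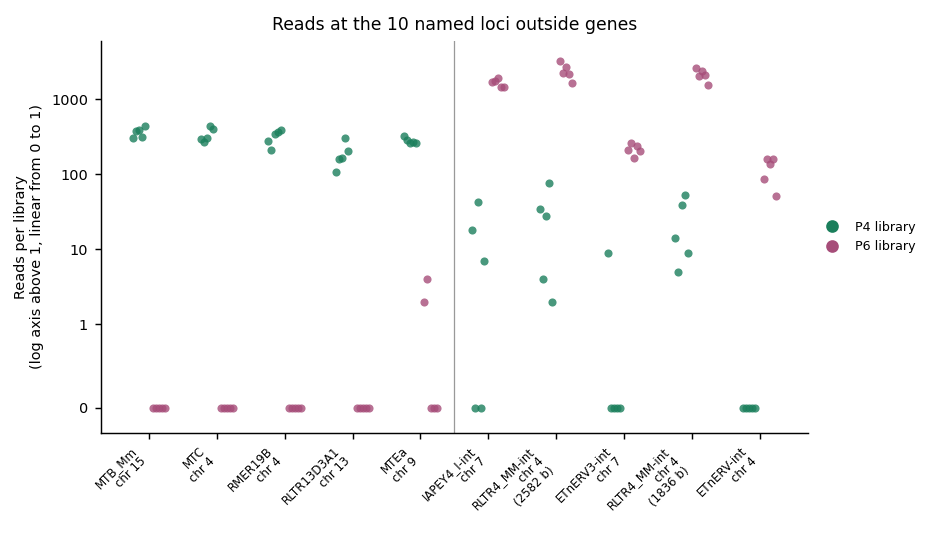
Reads at each of the 10 named LTR loci outside genes in each of the 5 P4 and 5 P6 libraries (y axis, reads, on a log axis above 1 and linear from 0 to 1), 1 point per library. The 5 loci that are higher in P4 have 0 to 4 reads in P6, and the 5 that are higher in P6 have 0 to 77 reads in P4.

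LTR reads inside genes were summed per host gene, for loci that overlap exactly 1 gene. A read can be counted at several LTR loci of a gene, so these sums are not numbers of molecules. Of 11382 genes tested, 5117 were higher in P4 (45%) and 3571 in P6 (31.4%), with a median log2 difference of 0.42. Of these calls, 1863 toward P4 and 419 toward P6 were in genes that passed the filter through 1 population alone. With loci of 1 gene that had the same reads in all 10 libraries counted once, 4978 and 3574 were called. Groups did not overlap in 4213 (37%) and 2866 (25.2%). These sums are of LTR loci in introns and exons, not of the messenger RNA, and genes with no LTR locus, such as Sox9, Amh and Star, cannot be seen. Of 431 long intergenic noncoding RNAs tested, 303 were higher in P4 and 51 in P6, with a median log2 difference of 3.06. How many of them passed the filter through P4 alone, and so had to differ, was not counted. These values therefore only describe the genes tested. Of 378 genes on chromosome X, 142 were higher in P4 and 152 in P6, with a median of -0.11, against a median of 0.44 over 10996 autosomal genes.

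Of the 25 genes listed for the piRNA pathway, 22 passed the filter on low values, and these were higher in P4 without overlap, with a median log2 difference of 8.06, beside 45% called, 37% without overlap and a median of 0.42 over all host genes. In 13 of the 22 the P6 mean was under the minimum of the filter, so they passed it through P4 and had to differ, and the count and median describe them. Piwil1 and Tdrd6 had 0 in every P6 library, and Tdrd6 did not pass the filter under the other 3 scalings. Summed over the list, the P4 libraries ranged from 38811 to 57129 scaled CPM and the P6 libraries from 73.6 to 121. Most of the sum in every P4 library came from Fkbp6, a gene with 52 LTR loci at which reads can be counted repeatedly. Of the PIWI proteins that bind piRNAs, Piwil2 stood at 1872 ± 349 in P4 and 6.08 ± 2.19 in P6, Piwil4, the nuclear PIWI protein of fetal germ cells, at 321 ± 93.6 and 0.0518 ± 0.116, and Piwil1, the PIWI protein of later spermatogenesis, at 4.98 ± 1.47 and 0 in every P6 library. Fkbp6, a co-chaperone of piRNA loading, reached 31725, 29351, 26383, 23463 and 36166 in P4 libraries 43-4, 43-5, 44-1, 44-3 and 48-4, and 39.2, 27.1, 0.491, 26.9 and 53.4 in P6 libraries 1, 2, 3, 4 and 12. P6 library 3 was thus far below the other P6 libraries, and every P4 library was far above all of them (log2 10.79 ± 0.966, SE, limma FDR 1.41e-06).

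Mael, a piRNA pathway factor of the nuage, stood at 4251 ± 428 scaled CPM in P4 and 2.71 ± 2.55 in P6. Tdrd9, a Tudor domain helicase, stood at 2466 ± 560 and 1.80 ± 1.61, and Gtsf1, a partner of PIWI proteins, at 596 ± 122 and 0.466 ± 1.04, the latter from 1 P6 library with reads. The smallest difference of the list was in Tdrd7, another Tudor domain protein, at 137 ± 24.1 and 18.3 ± 3.56 (log2 2.89). The trimming and modifying enzymes were higher in P4 as well, with Pnldc1, which trims piRNA ends, at 19.4 ± 5.08 and 0.456 ± 0.275, and Henmt1, which methylates them, at 52.6 ± 4.69 and 0.0490 ± 0.110.

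Among 34 genes of germ cell identity, 23 passed the filter, 13 of them with a P6 mean under its minimum. Of the 23, 22 were higher in P4 and 1 in P6, with a median log2 difference of 7.12, beside 45%, 31.4% and 0.42 over all host genes. Tfap2c, one of the 22, did not pass the filter under the other 3 scalings. Dazl, a germ cell RNA-binding protein, stood at 578 ± 20 scaled CPM in P4 and 0.248 ± 0.245 in P6. The meiotic genes Sycp1, of the synaptonemal complex, and Stag3, a cohesin subunit, stood at 59.5 ± 5.81 and 309 ± 59.5 in P4, and at 0 in every library and 2.03 ± 0.736 in P6. The list summed to 12181 to 14625 scaled CPM in the P4 libraries and 406 to 662 in the P6 libraries, where Dmrt1 made up most of it. Dmrt1, a transcription factor of germ and Sertoli cells, stood at 866 ± 229 and 414 ± 96.8 (log2 1.06), and Kit, the receptor of stem cell factor, at 34.1 ± 11.9 and 13.7 ± 3.84 with overlapping groups. Etv5, an ETS transcription factor of spermatogonia and Sertoli cells, was the member higher in P6, at 12.9 ± 6.10 in P4 and 69.7 ± 6.58 in P6 (log2 -2.53).

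Other genes with very large differences toward P4 were Morc1, a chromatin ATPase needed for transposon silencing in male germ cells, at 3386 ± 537 and 0.939 ± 1.15 scaled CPM (log2 12.09), and Tcfl5, a testis transcription factor, at 1379 ± 192 and 0.204 ± 0.337 (log2 11.77). Stk31, a germ cell kinase-like protein with a Tudor domain, stood at 2256 ± 315 and 1.29 ± 1.42, and Fam178b at 2168 ± 295 and 0.902 ± 0.726. These 4 passed the filter through P4 alone. Morc1 is also a member of the piRNA and silencing lists, and Mael and Stk31 of the germ cell list.

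Genes of DNA methylation and retrovirus silencing were mixed. Of 36 tested, 12 were higher in P4, 17 in P6 and 7 were not called, with a median log2 difference of -0.01, beside 45%, 31.4% and a median of 0.42 over all genes tested. Dnmt3a and Dnmt3b, which set new methylation, were higher in P4, with Dnmt3a at 146 ± 11.3 scaled CPM against 53.5 ± 10.8 and Dnmt3b at 50.2 ± 10.5 against 11.3 ± 5.29. Dnmt3c had too few reads to be tested. The cofactor Dnmt3l stood at 90.2 ± 18.7 in P4 and 0.154 ± 0.233 in P6 (log2 7.91), from 1 LTR locus, and passed the filter through P4 alone. Dnmt1, the enzyme that copies methylation at replication, stood at 49.3 ± 7.64 and 48.8 ± 11.1 and did not pass the test (log2 0.02). Its recruiting factor Uhrf1 was higher in P6, at 21.4 ± 3.36 against 3.62 ± 1.30, and the methyl-CpG reader Mbd2 at 207 ± 12.6 against 26.4 ± 11.8.

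The HUSH complex member Mphosph8 stood at 327 ± 40.7 in P4 and 35.5 ± 6.19 in P6, and the demethylase Kdm1a at 636 ± 56.9 and 115 ± 14.6. Ehmt1, a histone H3 lysine methyltransferase, was higher in P6, at 212 ± 36.4 against 55.0 ± 13.7, and so were both tested subunits of the chromatin assembly factor, Chaf1a at 38.2 ± 2.40 against 11.6 ± 2.85 and Chaf1b at 59.4 ± 6.61 against 15.3 ± 6.76. Setdb1, the methyltransferase that silences many retroviruses, stood at 35.3 ± 4.87 and 30.3 ± 4.79 and did not pass. Its partner Trim28 had 0.396 ± 0.568 and 2.38 ± 1.18 (log2 -2.33), near the worth of a few reads, and passed the filter through P6 alone. The demethylases Tet1 and Tet2 were higher in P6, with overlapping groups, at 16.7 ± 6.98 against 6.03 ± 3.64 and 9.19 ± 3.31 against 3.93 ± 1.66.

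Markers of the somatic cell types were mostly higher in P6. Of 14 tested Sertoli markers 13 were higher in P6 and 0 in P4, with a median log2 difference of -4.70, beside 31.4%, 45% and 0.42 over all host genes. Of these 14, 2 passed the filter through P6 alone. Gata4, a transcription factor of gonadal somatic cells, stood at 701 ± 46.9 scaled CPM in P6 and 25.1 ± 12 in P4. Fshr, the receptor of follicle-stimulating hormone, stood at 209 ± 28.5 and 7.56 ± 14.5, its P4 mean resting on library 44-1 (33.4, others at most 2.22). Dhh, the hedgehog ligand of Sertoli cells, stood at 53.9 ± 5.38 in P6 and 0.929 ± 1.09 in P4. Of 19 interstitial and mesenchymal markers 17 were higher in P6 and 1 in P4, with a median of -4.49, against the same shares, and 1 passed the filter through P6 alone. Dcn, the matrix proteoglycan decorin, stood at 1227 ± 176 in P6 and 25.3 ± 25.9 in P4, and Pdgfra, a growth factor receptor of mesenchyme, at 77.4 ± 12.6 and 1.30 ± 0.965. Cnn1, a smooth muscle calponin, went the other way, at 13.9 ± 2.08 in P4 and 1.33 ± 0.635 in P6.

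Leydig and steroidogenic markers were less uniform, with 6 of 12 higher in P6, 1 in P4 and 5 not called (median -1.68). Over all host genes, 31.4% were higher in P6 and 45% in P4, and the counts of this and the next 3 lists are to be read beside these shares. The member called higher in P4, Nr5a2, a nuclear receptor, passed the filter through P4 alone, had overlapping groups and was not called with a common total per library or with TMM factors from loci outside genes. Hsd17b3, an enzyme of testosterone synthesis, stood at 294 ± 57.2 in P6 and 14.6 ± 8.57 in P4, and Scarb1, the receptor that takes up cholesterol from lipoproteins, at 889 ± 81.8 and 195 ± 48.6. Cyp11a1, the first enzyme of steroid synthesis, stood at 41.2 ± 21.1 in P6 and 73.3 ± 73.5 in P4 and did not pass the test. Of 9 endothelial markers, 3 were higher in P4 (Ptprb, Erg and Flt1), 3 in P6 (Cdh5, Eng and Tek) and 3 were not called (median 0.69). Ptprb and Erg passed the filter through P4 alone, so they had to differ. Flt1, a receptor of vascular endothelial growth factor, stood at 52.6 ± 3.69 in P4 and 2.31 ± 2.77 in P6, whereas Cdh5, the adhesion molecule of endothelial junctions, stood at 91.2 ± 22.7 in P6 and 3.16 ± 3.53 in P4. The macrophage list had 4 of 8 higher in P6 and 2 in P4 (median -1.56), and the erythroid list 4 of 5 higher in P6 and 0 in P4 (median -3.12). In these lists 1 and 3 members passed the filter through P6 alone.

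**Figure D4:**
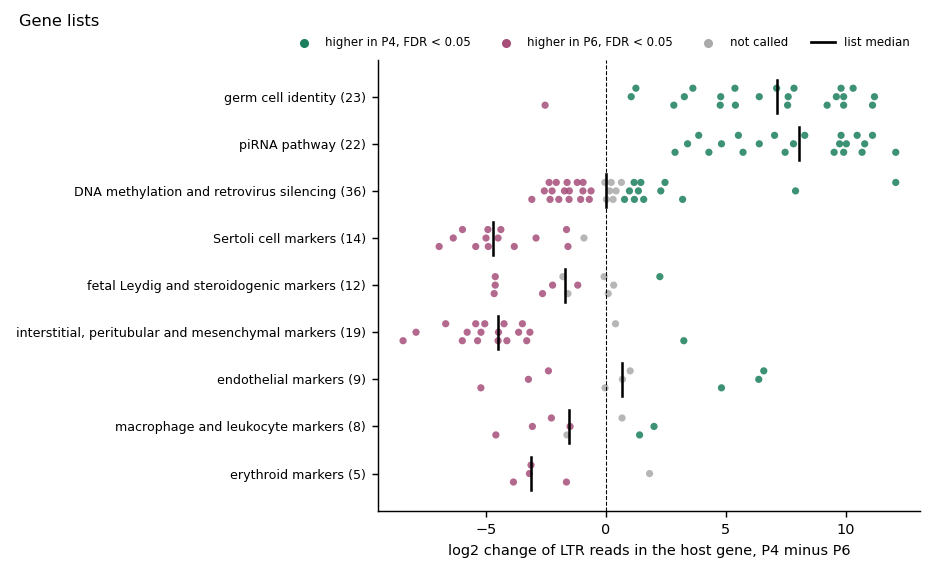
Log2 difference in LTR reads per host gene, P4 minus P6, for the tested members of each gene list (y axis, lists; x axis, log2), 1 point per gene, coloured by its call, with a black line at the list median. The piRNA and germ cell lists lie far to the right with medians of 8.06 and 7.12, the Sertoli and interstitial lists to the left, and the silencing list around 0.

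The host genes with the largest differences toward P6 had varied functions. Lrfn5, a synaptic adhesion molecule, had 0 reads in every P4 library and 110, 88.1, 173, 140 and 265 scaled CPM in P6 libraries 1, 2, 3, 4 and 12. Lrfn5 passed the filter through P6 alone, so it had to differ. C1qtnf7, a secreted C1q-like protein, stood at 333 ± 23.5 in P6 and 1.35 ± 1.85 in P4, and Sorcs2, a sorting receptor, at 897 ± 159 and 6.48 ± 10.7. Fbn1, the microfibril protein fibrillin, and Gli2, a transcription factor of hedgehog signalling, stood at 304 ± 68.8 and 237 ± 65 in P6 and at 2.28 ± 4.42 and 2.07 ± 3.06 in P4. Prlr, the prolactin receptor, stood at 514 ± 96.0 and 17.1 ± 32.7, and Tspan11, a tetraspanin, at 238 ± 22.9 and 4.08 ± 5.89. In P4 the reads of C1qtnf7 and Tspan11 lay mostly in libraries 44-1 and 44-3, those with the most somatic marker reads. Without these 2 libraries, 4719 host genes were higher in P4 and 3592 in P6.

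Loci inside 1 gene are not independent measurements. Of 92090 tested loci in introns, 58300 (63.3%) had the same number of reads in all 10 libraries as another locus of their gene, against 17.0% of loci that overlap an exon and 2.06% of loci outside genes. Summed over all loci, inside genes and outside, 404 of 663 species were higher in P4 (60.9%) and 153 in P6 (23.1%), with a median log2 difference of 0.31. With a common total per library in place of TMM, 283 and 279 species were called, and with TMM factors from loci outside genes 167 and 228, so that the direction of the species totals over all loci turned with the scaling. For totals outside genes the same scalings called 404 and 32 species, and 386 and 32.

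The same populations of the F3 generation, 4 DMSO libraries of P4 and 4 of P6, share no library with these 10 and were fitted apart. They held 2755294 to 5476368 reads in P4 and 4104928 to 5032020 in P6. Of 556 species outside genes, 441 were higher in P4 (79.3%) and 20 in P6 (3.6%). Of the 441 F1 species that were higher in P4, 437 were tested in F3 and 433 had the same sign there, 398 of them called. Of the 26 that were higher in P6, 25 were tested, 24 had the same sign, 19 were called in the same direction and 1 in the opposite one. Among single loci, 36056 of the 39355 higher in P4 were tested and 83.3% had the same sign, and of 36494 tested among those higher in P6 it was 97.1%. For host genes it was 86.6% of 4905 and 95.6% of 3542. F3 called 26.7% and 37.1% of 108291 loci, and 30.2% and 26.7% of 12029 host genes, as higher in P4 and P6. Over all loci, inside genes and outside, it called 388 of 664 species higher in P4 (58.4%) and 99 in P6 (14.9%), and 235 and 154 without the libraries numbered 4.

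RLTR4_MM-int stood at 1661 ± 228 scaled CPM (SD, n = 4) in F3 P6 libraries and 12.2 ± 5.49 (SD, n = 4) in F3 P4 libraries. At the RLTR4_MM-int locus at chr4:133096444-133099025 the F3 P4 libraries held 0, 1, 0 and 0 reads and the P6 libraries 3572, 3765, 2511 and 3746. Sorcs2 had 0 in each F3 P4 library and 747 to 962 in P6. The ETnERV-int locus at chr4:41871689-41877123 was an exception, with 0 reads in all 8 F3 libraries against 52 to 161 reads in F1 P6. The share of reads outside genes was 3.90 ± 1.21% in F3 P4 and 1.33 ± 0.0768% in F3 P6 (n = 4 each, exact permutation test over 70 splits, adjusted p = 0.0312). Other shares differed from F1. Loci that overlap an exon held 8.05% in F3 P4 and 8.17% in F3 P6, with overlapping groups (exact permutation test, p = 0.657). Loci in introns held 88.1% and 90.5%, without overlap. ERV1 of all LTR reads was higher in P4 in F3 (6.12% against 5.59%) and lower in P4 in F1 (5.43% against 5.56%).

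The difference between the generations was tested for species outside genes in 1 model of all 18 libraries. Of 538 species, 53 had a P4 minus P6 difference that was not the same in F1 and F3 (limma FDR under 0.05, 161 at an unadjusted p under 0.05), and in each of the 53 the value was lower in F1. ERVB7_1-LTR_MM had a log2 difference of 2.52 in F1 and 6.14 in F3 (F1 minus F3 -3.63, limma FDR 5.20e-05). IAPEY5_I-int had 1.09 and 5.09 (-4.002, limma FDR 0.00555), and IAPLTR2_Mm -0.10 and 2.70 (-2.80, limma FDR 0.000101). These 3 were chosen after their values were seen. Without the locus of most reads of each, their F1 differences were 2.17, 0.57 and 0.73. Of the 16 species described above by the rule, RMER19C (-1.89) and RLTR9E (-2.04) differed between the generations, both being higher in P4 in F1 and in F3. F3 P4 libraries 1 and 2 had the highest levels of both.

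**Figure D5:**
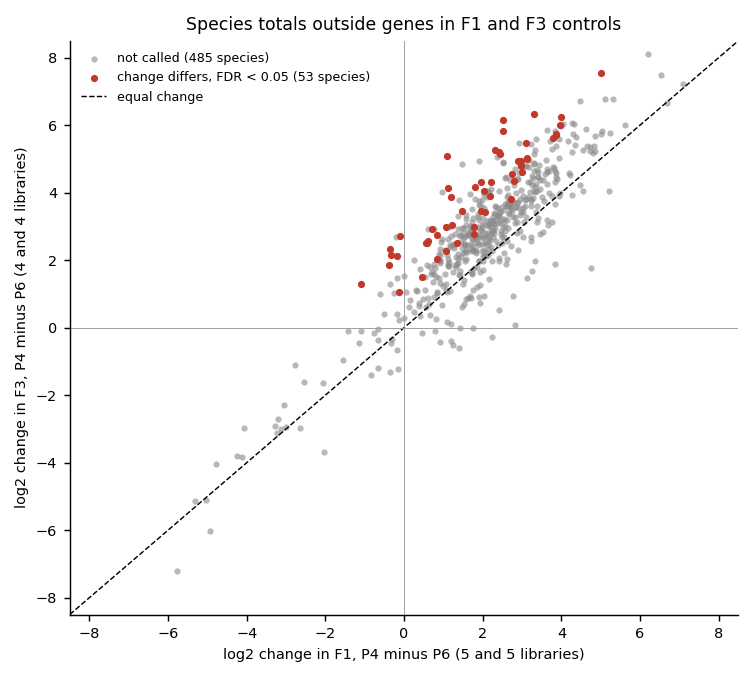
Log2 difference between P4 and P6 for each species outside genes tested in both generations, F1 (x axis) against F3 (y axis), 1 point per species, with a dashed line of equal differences and the 53 species called in the test of the generations in red. Most points lie in the upper right, and the 53 red points lie above the line.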

How the data were processed

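RNA-seq reads of poly(A) cDNA were trimmed with Trim Galore, aligned with STAR to GRCm38/mm10 and counted at RepeatMasker LTR loci with a modified ERVmap by the authors (per the labels and the methods of the study, versions not given in the sources used here). The deposited values are a signal per locus and library, in CPM after edgeR TMM scaling within each deposited file. The counting of multi-mapping reads is not given in the sources used here, so at multi-copy repeats the copy a read is assigned to is uncertain.

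Each library was divided by its lowest non-zero value, which gave whole reads (100% of values, tolerance 0.01). The P4 and P6 tables were joined by locus, and the 10 F1 libraries were scaled together by TMM. Values were tested as log2(scaled CPM + 1 unit), 1 unit being 0.259 scaled CPM, with a trended variance in limma 3.58.1 (R 4.3.3), for features with a mean of at least 5 units and an FDR of 0.05 (Benjamini-Hochberg over all features tested). On this scale the change of low features is understated. The count tests on the recovered reads were alternatives: of single loci, edgeR 4.0.16 (quasi-likelihood) called 39534 higher in P4 and 36804 in P6, and DESeq2 1.42.0 called 37250 and 37363. The other alternatives were the likelihood ratio test of edgeR, pseudocounts of 0.25 and 4 units, no filter or a mean of at least 20 units, other scalings, subsets of loci, P4 libraries of 1 first label number summed, and each library left out. Chosen after seeing the data were loci with identical reads counted once, no chromosome Y loci, each species without its locus of most reads, and no P4 libraries 44-1 and 44-3. Shares of reads were compared by exact permutation tests, two-sided.

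Loci were placed on GENCODE gene models of GRCm38. Starts in the files are 0-based, since 85763 neighbours touch under that reading against 9257 otherwise, so 1 was added. At the positions used, 61.3% of 40789 ERVL-MaLR LTRs began with TG, against 2.37% 1 base earlier. Sequences came from the RefSeq GRCm38 genome. Tables were handled with the data.table package (1.17.8), pandas 2.3.3 and numpy 2.4.6 in Python 3.11.15, and figures were drawn with matplotlib 3.10.9.

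The tests were run on simulated data: for F1, 4-fold changes were recovered at 92.5% of changed loci, 97% of species and 88.5% of host genes, and 2-fold changes at 27.8%, 40% and 3.54%. For F3, 4-fold changes were recovered at 1.03%, 33.3% and 0%. In each simulation 200 loci, 100 species or 200 host genes were changed, and all features shared a common dispersion. Far larger shares of features were called in the data. These percentages therefore describe the simulated setting and not the recovery in the data. The libraries and lists were chosen with earlier results of these data known. Named were the 8 species and 5 loci outside genes and the 8 protein-coding host genes with the largest change in each direction among those past the FDR whose groups did not overlap, with means of at least 200, 50 and 200 units, for species with at least 5 loci outside genes, and, from the lists, members with their roles. Of the host genes named by this rule, 1 is not reported here. The F3 labels number P4 and P6 libraries 1 to 4, but the deviations of same-numbered libraries correlated at -0.00638, -0.0220, -0.00992 and 0.0245, so they were not taken as pairs. P5 cells, tributyltin groups and methylated DNA, measured in P6 cells only, were not used here.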

Additional observations from a re-analysis of the deposited data

Results flagged for a closer look

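Of 162 groups of 5 libraries examined, 10 (6.17%) held a library far from the other 4, where chance gives about 1 in 20. In P4, library 44-3 was far above the others in Fbn1 (10.2 scaled CPM, others at most 1.00), in Prlr (75.2, others at most 9.73) and in the summed endothelial markers (208.9, others at most 150.1), and had the lowest share of reads in introns (90.2%, others at least 90.6%). Library 44-1 was highest in Sorcs2 (25.4, others at most 4.29) and had the lowest ERVK share of LTR reads outside genes (40.6%, others at least 42.1%). These are the 2 P4 libraries with the most somatic marker reads, 2562 and 2093 scaled CPM against 1248 to 1678 in the other 3, and the part of those reads in the values was not tested. Library 43-4 alone had reads at the ETnERV3-int locus of chromosome 7, 106267266 (2.50 scaled CPM, others 0).

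In P6, library 3 was highest in IAP-d-int (15.7 scaled CPM, others at most 9.56), library 1 in Gli2 (350.4, others at most 230.3) and library 12 in Gtsf1 (2.33, others 0). The P4 minus P6 difference was smaller in F1 than in F3 for RMER19C (-1.89 on the log2 scale, limma interaction FDR 0.00426) and for RLTR9E (-2.04, limma interaction FDR 0.0231).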

How the results depend on the processing

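Of 1394 values recomputed under an alternative, 1378 kept their direction and their side of the threshold or, for counts, stayed within 1.5 times, and all 1004 for the 42 named features did. Without a filter 63091 single loci were higher in P4, and with a mean of at least 20 units 21138 were higher in P4 and 16524 in P6, from 291637 and 45094 loci tested. With each species counted without its locus of most reads, 17 species outside genes were higher in P6 (493 tested), and RNERVK23-int, with P6 reads at 1 locus, gave no value. Loci that overlap an exon gave 1237 and 1199 host genes, from 3259 tested. For species over all loci, a common total gave 279 higher in P6, and TMM from loci outside genes gave 167 higher in P4, so that 72.5% of calls were higher in P4 with TMM over all loci, 50.4% with the common total and 42.3% with TMM outside genes. These 2 scalings moved the median log2 difference of single loci from 0.02 to -0.32 and -0.41 (cause not tested).

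As shares of loci with a read in place of shares of reads, P4 minus P6 turned to -4.58 percentage points in introns, 0.233 for ERV1 and -0.449 for ERVL of all loci, and -0.155 for ERVL and -1.29 for ERVL-MaLR outside genes (the cause was not tested). Leaving out 1 library each gave 36001 to 39778 and 35185 to 38600 loci, 417 to 447 and 25 to 27 species outside genes, 372 to 404 and 149 to 175 species over all loci, and 4767 to 5120 and 3415 to 3624 host genes, higher in P4 and P6. The share in introns then differed by 0.129 to 0.325, and passed the exact permutation test without P4 library 44-3 (0.325, adjusted p = 0.0397). In F3, leaving out each number gave 235 to 410 and 90 to 154 species over all loci, lowest and highest without number 4.

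No paired analysis was possible for F1 because P4 and P6 labels share no numbers. In F3, with the number as a replicate block, 27919 and 39675 loci, 437 and 18 species outside genes, 380 and 97 species over all loci and 3334 and 2977 host genes were higher in P4 and P6. Only 1 of the 4 F3 P4 libraries correlated best with the P6 library of its own number. Depth limits loci with few reads.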
